A study of Mus musculus with 8 samples.

Results

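The genes described here are 9 genes that mark the regulatory T cell lineage, namely Foxp3, Ikzf2, Ikzf4, Il2ra, Lrrc32, Gpr83, Izumo1r, Capg and Socs2. They were followed in CD4 single-positive (CD4SP) thymocytes, the thymic T cells that carry CD4 and no longer CD8. The genes were given as 10 symbols, of which Folr4 is the older name of Izumo1r. Each was represented by the probe set annotated with its symbol alone, the brightest over all arrays where there was a choice. They are 9 of 22180 genes with such a probe set, and 8 of them were among the 11585 genes bright enough to be tested, while Socs2 lay below the intensity filter. The filter is a mean log2 intensity of 5.56, the median over all probe sets.

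The series asks how protein geranylgeranylation, a lipid modification of small GTPases, bears on thymocyte egress. The 8 arrays hold sorted CD4SP thymocytes of C57BL/6 mice, 4 of wild-type (WT) and 4 of Pggt1b_KO genotype (KO), with no treatment that sets the groups apart. Pggt1b encodes the beta subunit of the type I enzyme that carries out this modification. The promoter or recombinase behind the knockout, the ages of the mice and any pooling of animals could not be learned from the sources used here. The labels do not say that the arrays came from separate mice, so p-values capture the spread among these samples alone, which may be technical.

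Regulatory T cells are CD4 T cells that restrain immune responses, and part of them arise in the thymus from CD4SP cells whose T cell receptors bind self peptides strongly. Receptor and costimulatory signals first raise the high-affinity interleukin-2 receptor, and interleukin-2 acting through STAT5 then induces Foxp3, the transcription factor that fixes the lineage. Such cells are a minority of a CD4SP sort. In bulk RNA from such a sort, fewer regulatory cells and less of a transcript per cell cannot be told apart.

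In these samples the labelled cell type and genotype could be followed in the values. Cd4 stood between 12.26 and 12.28 log2 in WT and between 12.19 and 12.34 in KO, and Pggt1b fell by 33.7%, with separate genotypes (limma, Benjamini-Hochberg adjusted p = 0.00141). Over all tested genes 1503 (13.0%) changed. Of them 988 were lower in KO and 515 higher, so that 34.3% of the calls were higher, against 22.5% with each array centred on its median. A gene is called changed here at an adjusted p under 0.05 over the tested genes. Pairs of arrays correlated at 0.990 to 0.994 within a genotype and at 0.985 to 0.990 between genotypes (Pearson r over tested genes, which are not replicates).

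Most of the regulatory lineage genes lay lower in KO, but whether they moved together was not tested. Gpr83 and Capg fell, Foxp3 stood slightly higher without passing the test, and the others lay lower by differences that did not pass. Of the 8 tested genes 2 were called lower, where 8.53% of all tested genes were, and no member was called higher (0 of 8 also at an unadjusted p under 0.05), where 4.45% were. At an unadjusted p under 0.05, 5 of the 8 were lower, namely Capg, Gpr83, Ikzf4, Izumo1r and Ikzf2, against 19.2% of all tested genes. The KO mean was below the WT mean in 7 of 8, against 59.1% of all tested genes, and the median difference was -0.27 log2 against -0.03 for all tested genes. The number called lower was 1 on omitting KO replicate 1, 2 or 4, or WT replicate 2, 3 or 4, and 3 on omitting KO replicate 3.

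**Figure D1:**
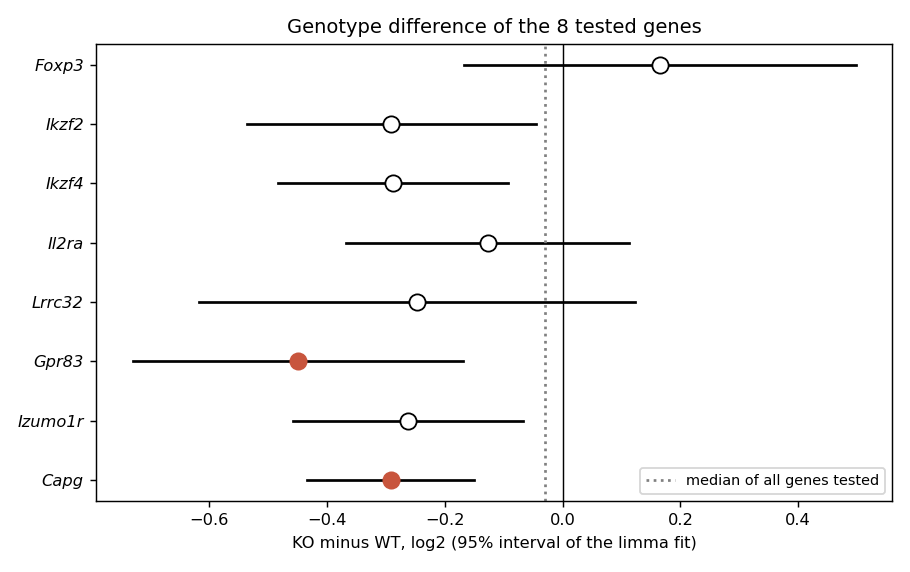
Difference between KO and WT (log2, x axis) of the 8 tested genes, as points with the 95% interval of the limma fit, with filled points for genes called changed. Gpr83 at -0.45 and Capg at -0.29 are called, Foxp3 at 0.17 is the only point to the right of 0, and the dotted line is the median of all tested genes at -0.03.

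Foxp3, the transcription factor that defines the lineage, was not lower in KO. It stood at 8.33, 7.87, 7.96 and 8.10 log2 in WT replicates 1 to 4 and at 7.83, 8.27, 8.24 and 8.58 in the KO replicates. The WT values lay inside the KO range: KO replicate 4 held the highest and KO replicate 1 the lowest value of all 8 arrays. The means were 8.07 ± 0.20 in WT and 8.23 ± 0.31 in KO (SD, n = 4 each). The difference was 0.17 ± 0.15 SE with a 95% interval from -0.17 to 0.50 log2 (limma, Benjamini-Hochberg adjusted p = 0.505), so a fall beyond 0.17 log2 lies outside the interval. It kept its sign in all 21 alternatives, from 0.02 to 0.35 log2, and adjusted p stayed between 0.170 and 0.968. Another probe set that the annotation shares between Foxp3 and its neighbours Ccdc22 and Ppp1r3f was not used, and its genotype means differed by -0.01 log2.

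The Ikaros-family factors of regulatory T cells lay lower in KO but did not pass the test. Ikzf4 encodes Eos, a partner of FOXP3 in gene silencing. It stood at 9.31, 9.13, 9.10 and 9.15 log2 in WT and at 8.88, 8.64, 9.03 and 9.0 in KO. The KO arrays were all under the lowest WT array, as they were for 13.5% of all tested genes. The difference was -0.29 ± 0.087 SE (limma, Benjamini-Hochberg adjusted p = 0.0594). Ikzf4 passed with each array centred on its median (adjusted p = 0.0333), after a second quantile normalization (0.0460) and with an intensity trend and robust prior (0.0338), out of alternatives that ran from 0.0333 to 0.278. Centring moved the differences of all genes down alike, from a median of -0.03 to -0.06 log2 over all tested genes.

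Ikzf2 encodes Helios, which in mice is abundant in regulatory T cells of thymic origin and also appears in thymocytes after strong receptor signals. It stood at 9.99, 9.85, 9.99 and 10.16 log2 in WT and at 9.79, 9.40, 9.70 and 9.94 in KO. Of the KO arrays 3 lay below every WT array, while KO replicate 4 lay inside the WT range. The difference was -0.29 ± 0.11 SE (limma, Benjamini-Hochberg adjusted p = 0.113, and from 0.0563 to 0.379 over the alternatives). The remaining family members, expressed across lymphocytes, showed no shift of this size: Ikzf1, Ikaros itself, differed by 0.0034 log2, Ikzf3, Aiolos, by 0.02 and Ikzf5, Pegasus, by 0.08, with adjusted p from 0.398 to 0.975 (limma). Whether the changes of Ikzf2 and Ikzf4 differ from those of the other family members was not tested.

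**Figure D2:**
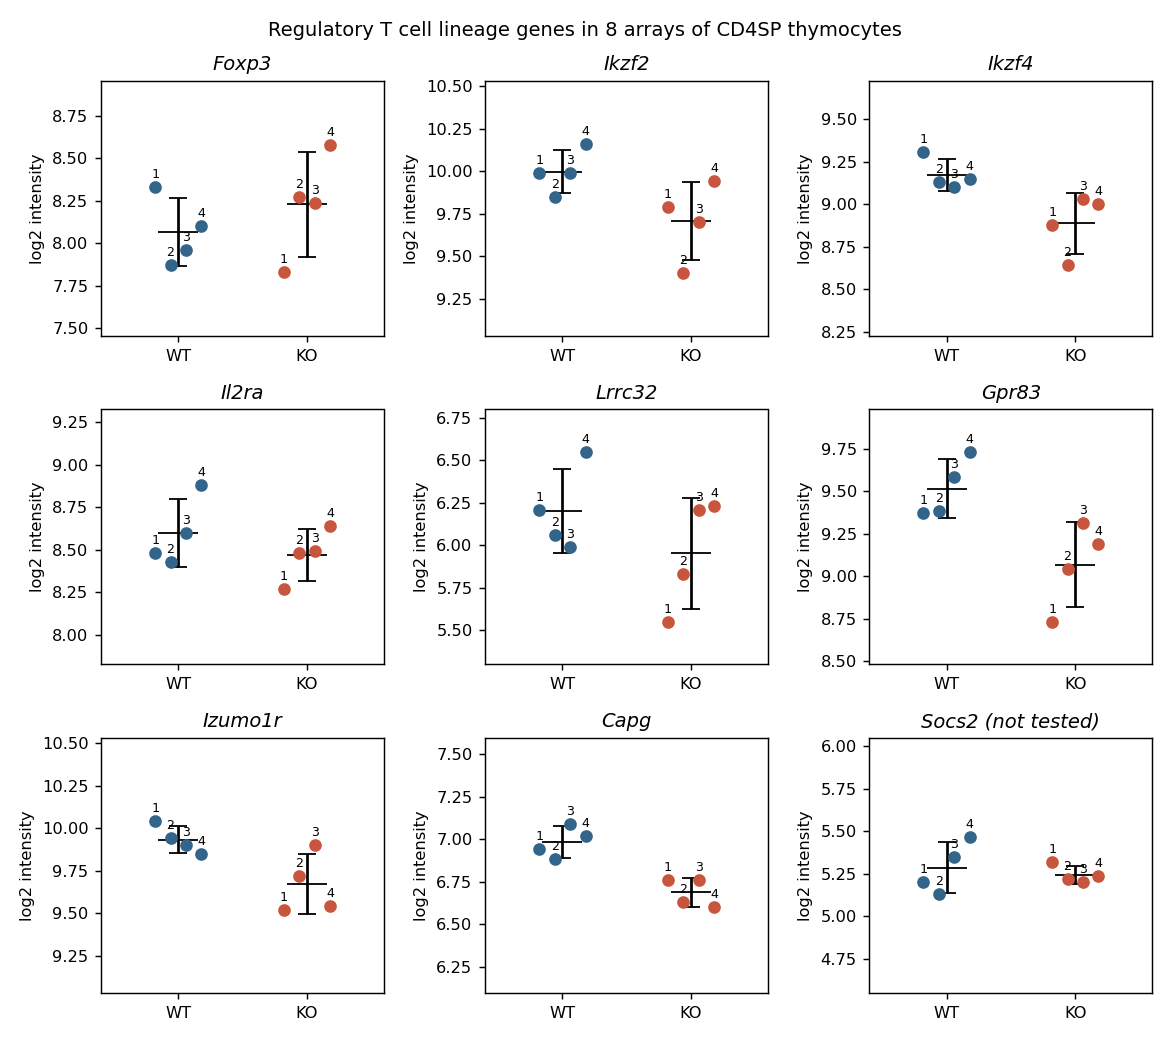
Log2 intensity (y axis, each panel spanning 1.5 log2 units) of the 9 lineage genes in WT and KO arrays, as points numbered by replicate with the mean and SD of 4 arrays. The genotypes are separate for Ikzf4, Gpr83 and Capg and overlap for Foxp3, Ikzf2, Il2ra, Lrrc32, Izumo1r and Socs2.

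Among the surface proteins Gpr83 fell in KO. Gpr83 encodes a G protein-coupled receptor whose transcript is known to be enriched in regulatory T cells. It stood at 9.37, 9.38, 9.58 and 9.73 log2 in WT and at 8.73, 9.04, 9.31 and 9.19 in KO. Every KO array lay below every WT array, but KO replicate 3 and WT replicate 1 were only narrowly apart, and KO replicate 1 was the lowest. The mean fell from 9.52 ± 0.17 to 9.07 ± 0.25 (SD, n = 4 each), by 0.45 ± 0.13 SE on the log2 scale, and the intensity fell by 26.8% (limma, Benjamini-Hochberg adjusted p = 0.0436). The call was lost on omitting KO replicate 1, 2 or 4, or likewise WT replicate 2, 3 or 4 (adjusted p from 0.0569 to 0.0984). It also ended with no intensity filter (0.0714), over all probe sets, named or not (0.158), with array weights (0.0522) and with the heat-shock genes Hspa1a and Hspa1b as a covariate (0.108), and on dropping WT replicates 2 and 3 together (0.165). The range of adjusted p over all 21 alternatives was 0.00354, with the title number as a covariate, to 0.236, with KO replicates 1 and 2 both dropped.

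Izumo1r, which encodes the folate receptor-like protein once called folate receptor 4, did not pass the test. Its values were 10.04, 9.94, 9.90 and 9.85 log2 in WT and 9.52, 9.72, 9.90 and 9.54 in KO. KO replicate 3 lay within the WT range and the other 3 KO arrays lay below it. The difference was -0.26 ± 0.087 SE (limma, Benjamini-Hochberg adjusted p = 0.0789). Izumo1r passed without KO replicate 3 (adjusted p = 0.0242), with each array centred on its median (0.0412) and with an intensity trend and robust prior (0.0447). Centring lowered the differences of all genes by the same amount.

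In the RefSeq gene order of the assembly GRCm38.p6, Gpr83 and Izumo1r are next to each other among protein-coding genes. The next gene beyond Izumo1r is Panx1, which encodes a membrane channel and was looked at only after the neighbours had been found. It fell by 0.29 log2 (limma, Benjamini-Hochberg adjusted p = 0.0386), a call that held without WT replicate 1 (0.0138) and ended when any other single array was left out (up to 0.0961). On the other side of Gpr83, Mre11a differed by -0.03 and Ankrd49 by -0.10 log2 (adjusted p = 0.793 and 0.500).

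Il2ra encodes CD25, the alpha chain that gives the interleukin-2 receptor its high affinity, and marks both regulatory cells and their precursors. It stood at 8.48, 8.43, 8.60 and 8.88 log2 in WT and at 8.27, 8.48, 8.49 and 8.64 in KO. The genotypes overlapped, with 3 of 4 KO arrays inside the WT range. The difference was -0.13 ± 0.11 SE with a 95% interval from -0.37 to 0.11 log2 (limma, Benjamini-Hochberg adjusted p = 0.476). With the number in the sample titles as a covariate it was -0.23 and passed (adjusted p = 0.0404), and no other alternative gave a call.

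Lrrc32 encodes GARP, which holds latent TGF-beta on the surface of activated regulatory T cells. It lay nearest to the filter among the tested genes, at 6.21, 6.06, 5.99 and 6.55 log2 in WT and at 5.55, 5.83, 6.21 and 6.23 in KO. KO replicates 1 and 2 lay below all WT arrays, and KO replicates 3 and 4 lay within their range. The difference was -0.25 ± 0.17 SE with a 95% interval from -0.62 to 0.12 log2 (limma, Benjamini-Hochberg adjusted p = 0.361). KO replicates 1 and 2 were the lowest KO arrays here, so leaving out both had to raise the difference, which was then 0.01 log2.

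Capg, which encodes an actin filament capping protein of the gelsolin family and is enriched in activated and regulatory T cells, had the smallest p of the 8 tested genes. It stood at 6.94, 6.88, 7.09 and 7.02 log2 in WT and at 6.76, 6.63, 6.76 and 6.60 in KO. The genotypes were separate, and the arrays within each lay close together. The mean fell from 6.98 ± 0.093 to 6.69 ± 0.083 (SD, n = 4 each), by 0.29 ± 0.063 SE on the log2 scale, and the intensity fell by 18.3% (limma, Benjamini-Hochberg adjusted p = 0.0178). The call survived the omission of each array in turn (adjusted p from 0.0222 to 0.0479). It ended over all probe sets, named or not (0.0903), on dropping KO replicates 1 and 2 together (0.109) and on dropping WT replicates 2 and 3 together (0.0896).

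Of the relatives of Capg, the severing protein Gsn fell by 0.48 ± 0.065 SE on the log2 scale (adjusted p = 0.00215), and its call held when any single array was left out. Svil, which encodes supervillin, rose by 0.24 (adjusted p = 0.0481), and this call did not survive the omission of any one array (up to 0.117). Avil, which encodes advillin, differed by 0.29 (0.154). The capping protein subunits Capza1, Capza2 and Capzb, which cap the same filament ends, differed by -0.0083, -0.06 and -0.09 log2 and were not called (limma, Benjamini-Hochberg adjusted p from 0.237 to 0.938).

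Socs2, a suppressor of cytokine signalling that is induced by STAT5, was measured by a pair of probe sets, both below the filter. The brighter one stood at 5.20, 5.13, 5.35 and 5.47 log2 in WT and at 5.32, 5.22, 5.20 and 5.24 in KO. The genotypes overlapped, and the KO arrays lay within the WT range. The means of 5.29 ± 0.15 and 5.24 ± 0.053 (SD, n = 4 each) differed by -0.04 log2 (adjusted p = 0.844 in the limma fit with no intensity filter). At this signal a change in Socs2 may not be measurable. Of the other family members Socs7 fell by 0.21 log2 (limma, Benjamini-Hochberg adjusted p = 0.0363), a call that held only without WT replicate 1 or KO replicate 1 and otherwise reached up to 0.0815. Socs1 stood at -0.32 (0.125), Socs6 at -0.07 (0.581) and Socs5 at -0.03 (0.790).

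Upstream sequence was available in the RefSeq windows for 5 of the 9 genes (Il2ra, Capg, Gpr83, Izumo1r and Foxp3). The 250 bases before the annotated start are given for both genes that fell, for the neighbour of Gpr83 and for the Foxp3 window that holds motif matches, in assembly GRCm38.p6, from 5′ to 3′ on the gene's strand. Capitals mark matches, on either strand, to the STAT5 site TTCNNNGAA, the forkhead site TGTTTAC, the NFAT core TGGAAA or the RUNX core TGTGGT.
Gpr83 chr9:14859960-14860209 (+ strand): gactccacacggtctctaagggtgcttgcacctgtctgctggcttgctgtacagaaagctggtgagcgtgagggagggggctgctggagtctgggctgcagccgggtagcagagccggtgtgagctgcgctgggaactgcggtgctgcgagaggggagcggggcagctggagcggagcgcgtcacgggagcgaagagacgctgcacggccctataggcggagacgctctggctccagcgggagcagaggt
Izumo1r chr9:14903768-14904017 (- strand): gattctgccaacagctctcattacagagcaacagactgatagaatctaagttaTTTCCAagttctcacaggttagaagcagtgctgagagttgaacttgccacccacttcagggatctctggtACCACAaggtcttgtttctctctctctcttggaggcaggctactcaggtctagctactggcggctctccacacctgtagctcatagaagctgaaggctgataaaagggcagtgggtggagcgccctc
Capg chr6:72549397-72549646 (+ strand): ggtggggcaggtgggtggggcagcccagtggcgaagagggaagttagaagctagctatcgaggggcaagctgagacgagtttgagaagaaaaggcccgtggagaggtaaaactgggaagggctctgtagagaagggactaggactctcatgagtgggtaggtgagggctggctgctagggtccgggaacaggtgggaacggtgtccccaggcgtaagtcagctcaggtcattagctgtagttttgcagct
Foxp3 chrX:7580233-7580482 (+ strand): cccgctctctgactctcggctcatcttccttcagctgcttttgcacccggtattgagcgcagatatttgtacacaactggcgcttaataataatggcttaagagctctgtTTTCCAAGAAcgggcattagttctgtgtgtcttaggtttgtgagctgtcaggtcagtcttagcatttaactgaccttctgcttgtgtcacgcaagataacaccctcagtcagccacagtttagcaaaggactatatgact

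The windows of Gpr83 and Capg hold no match to any of these letters. In the Izumo1r window lie an NFAT core, 197 to 192 bases before the start, and a RUNX core, 127 to 122 bases before it, both on the opposite strand. In the Foxp3 window a STAT5 site reads TTCCAAGAA, 139 to 131 bases before the start, and it overlaps an NFAT core on the opposite strand. The other Foxp3 window and that of Il2ra hold no match. Among 32841 windows of this length 7.02% hold the STAT5 site, 3.17% the forkhead site, 18.6% the NFAT core and 14.0% the RUNX core. A match describes letters and is no evidence of binding.

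The 7 other tested genes were then set against Foxp3 within each array, a comparison added after the values had been seen. Foxp3 was the sole tested lineage gene with a positive difference, so that all 7 differences are negative by construction, and their direction is no result. They ran from -0.29 log2 for Il2ra to -0.62 for Gpr83. Izumo1r minus Foxp3 was 1.71, 2.07, 1.94 and 1.75 log2 in WT and 1.69, 1.45, 1.66 and 0.95 in KO. These genotypes were separate, narrowly so between WT replicate 1 and KO replicate 1 (two-sided exact permutation p = 0.0286, the smallest that 4 against 4 arrays can give). Gpr83 minus Foxp3 was 1.05, 1.51, 1.61 and 1.63 in WT and 0.90, 0.77, 1.07 and 0.61 in KO, with KO replicate 3 above WT replicate 1 (exact permutation p = 0.0571). Exact p was also 0.0571 for Ikzf2, Ikzf4 and Lrrc32, 0.0857 for Capg and 0.114 for Il2ra. Adjusted by Benjamini-Hochberg over the 7 comparisons these exact permutation p-values ran from 0.0799 to 0.114, so none passed. With exact p no lower than 0.0286, several genes would have to reach that value together for any to pass.

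**Figure D3:**
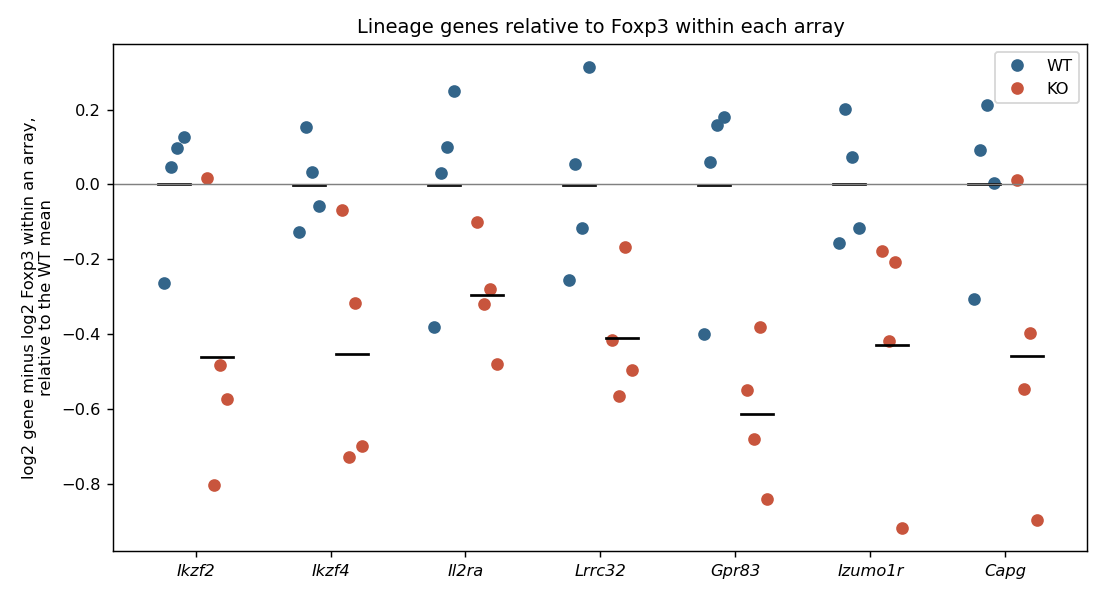
Log2 intensity of each of 7 genes minus that of Foxp3 in the same array (y axis, with the WT mean of each gene set to 0), for 4 WT and 4 KO arrays, with bars at the genotype means. The KO means lie from -0.29 for Il2ra to -0.62 for Gpr83, below 0 by construction since Foxp3 differed upward, and among the 7 genes only Izumo1r has genotypes that do not overlap.

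Set against the T cell level of each array, the mean of Cd4, Cd3e, Cd3d and Cd3g, the picture was close to that of the plain values. That level itself was 12.10 ± 0.030 in WT and 12.05 ± 0.019 in KO (SD, n = 4 each). Relative to it Foxp3 differed by 0.22 log2 and did not pass (two-sided exact permutation p = 0.343). Ikzf4, Gpr83 and Capg were lower by 0.24, 0.40 and 0.24 log2 with no overlap between genotypes (exact permutation p = 0.0286 each, the smallest this design can give, and 0.0762 after Benjamini-Hochberg adjustment over the 8 tested genes, so none passed). Since exact p cannot fall under this floor, several genes would have to reach it together before any could pass the adjustment. Ikzf2 and Izumo1r differed by -0.24 and -0.21 (exact permutation p = 0.114 each). The mean of all 10 tested CD4SP identity genes was itself lower in KO without overlap, at 10.95 to 10.99 in WT and 10.84 to 10.90 in KO. All 10 genes were lower in mean, where 59.1% of all tested genes were, with a median of -0.05 log2 against -0.03. Tox and Gata3, factors of CD4 T cell development, fell by 0.29 and 0.26 (limma, Benjamini-Hochberg adjusted p = 0.00841 and 0.0144), where 8.53% of all tested genes were called lower. Against this reference Foxp3 stood at 0.26 log2 (exact permutation p = 0.229), and Gpr83 at -0.36 with KO replicate 3 above WT replicate 2 (exact permutation p = 0.0571).

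Arrays differed in how the lineage genes sat within them. WT replicate 4 was the highest of all 8 arrays for 4 of the 8 tested genes, and KO replicate 1 the lowest for 5, Foxp3 among them. KO replicate 4 was the highest KO array for 4 genes and yet the lowest for Capg. The mean of the 8 genes was 8.58, 8.44, 8.53 and 8.68 log2 in WT and 8.17, 8.25, 8.45 and 8.46 in KO. WT replicate 2 was thus below KO replicates 3 and 4 in this mean, and the genotypes overlapped.

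The patterns most like that of Foxp3 were sought in deviations from the genotype means over the 8 arrays. The 5 closest genes were Myoz3 (Pearson r = 0.963), Rab44, Fam204a, Rdx and Vmn2r55 (0.939), and 13 of 10588 genes exceeded 0.9 once predicted, small RNA and antigen receptor genes were set aside. The tested lineage genes had r from -0.46 for Capg to 0.71 for Lrrc32, with 0.54 for Il2ra and 0.51 for Gpr83. These values describe 8 arrays that share their normalization and carry no p-value.

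Other genes known to be enriched in regulatory T cells fell in part. Of 27 listed genes 19 were tested, of which 5 fell and 1 rose, with a median of -0.17 log2. Over all tested genes 8.53% were called lower and 4.45% higher, with a median of -0.03 log2. Nt5e, the ectoenzyme CD73 that makes adenosine, stood at 7.25, 7.26, 7.46 and 7.64 log2 in WT and at 6.75, 6.49, 6.47 and 6.60 in KO. These genotypes were widely apart, and Nt5e fell by 0.82 ± 0.098 SE (limma, Benjamini-Hochberg adjusted p = 0.00118). Dusp4, a phosphatase that restrains MAP kinases, fell by 0.83 ± 0.15 SE (adjusted p = 0.00728). The tumour necrosis factor receptors Tnfrsf4, Tnfrsf1b and Tnfrsf18 fell by 0.49, 0.38 and 0.32 log2 (adjusted p from 0.00428 to 0.00979).

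The gene of this programme that rose was Prdm1, which encodes the effector factor BLIMP-1. It stood at 5.57, 5.79, 5.79 and 5.89 log2 in WT and at 6.13, 6.54, 6.09 and 6.23 in KO, a difference of 0.49 ± 0.10 SE (limma, Benjamini-Hochberg adjusted p = 0.0165). Its genotypes were separate, and the WT mean lay close to the filter. Ctla4, the inhibitory receptor used by regulatory T cells, differed by -0.30 with overlap (adjusted p = 0.190), and Icos by -0.17 (0.114). Il10ra lay the other way, at 0.42 with 3 of 4 KO arrays above all WT arrays (adjusted p = 0.068), as did Nrp1 at 0.13 (0.609). Of the 19 tested genes 15 were lower in mean and 4 higher, where 59.1% of all tested genes were lower. Of the 7 genes below the filter, Tigit, Itgae and Entpd1 had all KO arrays under all WT arrays, at -0.45, -0.23 and -0.15 log2. Such separation was seen in 13.5% of all tested genes, which lie above the filter, and the share below it was not counted. In the limma fit with no intensity filter Tigit was called lower (adjusted p = 0.043), and Itgae and Entpd1 were not (0.0906 and 0.195). Il10 stood at 3.44 in WT and 3.42 in KO. The 6 calls of this list among tested genes held when any single array was left out.

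In the interleukin-2 receptor and STAT5 pathway 2 of 13 tested genes of 16 listed fell and 1 rose, with a median of 0.02 log2. These counts are close to the 8.53% lower and 4.45% higher among all tested genes, so they are no result about the list. The receptor beta chain Il2rb stood at 9.42, 9.43, 9.71 and 9.78 log2 in WT and at 9.05, 8.92, 9.17 and 9.24 in KO. It fell by 0.49 ± 0.10 SE with no overlap (limma, Benjamini-Hochberg adjusted p = 0.0138), and the transcriptional repressor Gfi1 fell by 0.41 ± 0.072 SE (0.00755). The kinase Pim1 rose by 0.98 ± 0.090 SE (0.000271). Stat5a and Stat5b, the factors that carry the signal to Foxp3, stood at -0.15 and -0.08 (adjusted p = 0.0897 and 0.323), and the STAT5-induced Cish differed by 0.02. Il7r, Bcl2 and Jak1 stood at 0.17, 0.12 and 0.10 (adjusted p = 0.110, 0.136 and 0.199). In mean 6 of the 13 tested genes were lower and 7 higher, where 59.1% of all tested genes were lower. The 3 calls held when any single array was left out.

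Among 26 tested factors of 27 listed that act on the Foxp3 locus, 6 fell, where 8.53% of all tested genes did, with a median of -0.10 log2. They were Uhrf1, which guides maintenance DNA methylation, by 0.66 ± 0.093 SE, the receptor-induced Nr4a2, Nr4a1 and Nr4a3 by 0.45, 0.31 and 0.30, Smad3 of TGF-beta signalling by 0.29 and Gata3 by 0.26 (limma, Benjamini-Hochberg adjusted p from 0.00263 for Uhrf1 to 0.0466 for Smad3). The call of Smad3 ended when any array other than KO replicate 4 was left out (up to 0.0923), and that of Nr4a3 on omitting any array but WT replicate 1 and KO replicate 4 (up to 0.0911). Foxo1, Ets1, Nfatc1 and Nfatc2 differed by 0.02, -0.02, -0.01 and 0.0025 log2. Runx3 and Rel stood at -0.20 and -0.17 (adjusted p = 0.0822 and 0.0855). Gata3 is also counted among the CD4SP identity genes.

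Of 18 tested genes of costimulation and receptor signalling, of 20 listed, 7 fell, where 8.53% of all tested genes did, with a median of -0.20 log2, and Tnfrsf4 and Tnfrsf18 belong to this list too. Irf4, a factor induced by receptor signals, fell by 0.56 ± 0.067 SE and the receptor Pdcd1 by 0.55 ± 0.086 SE (limma, Benjamini-Hochberg adjusted p = 0.00118 and 0.00447). The immediate-early factors Egr1, Egr3 and Egr2, induced by receptor signals, fell by 0.36, 0.37 and 0.34 (adjusted p = 0.00733, 0.0205 and 0.0237). The call of Egr1 held when any single array was left out, that of Egr3 was lost on omitting WT replicate 2 or 3 or KO replicate 1 (up to 0.0592), and that of Egr2 on omitting replicate 3 or 4 of either genotype (up to 0.0556). Cd28, which drives costimulation, differed by -0.0052 log2 and Cd5 by -0.05. Malt1 lay higher without a call (adjusted p = 0.062), by 0.27 log2 with each array centred on its median. Of the 18 tested genes 16 were lower in mean and 2 higher, where 59.1% of all tested genes were lower. Genes known to be lower in regulatory than in conventional CD4 T cells gave no common direction. Of 9 tested genes Pde3b and Id2 fell by 0.66 and 0.37 and Dapl1 rose by 1.26. Over all tested genes 8.53% were called lower and 4.45% higher. The median of the list was -0.02 log2 against -0.03 for all tested genes. The call of Id2 (adjusted p = 0.0247) was lost on omitting any array but WT replicates 1 and 2 and KO replicate 4 (up to 0.0644).

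**Figure D4:**
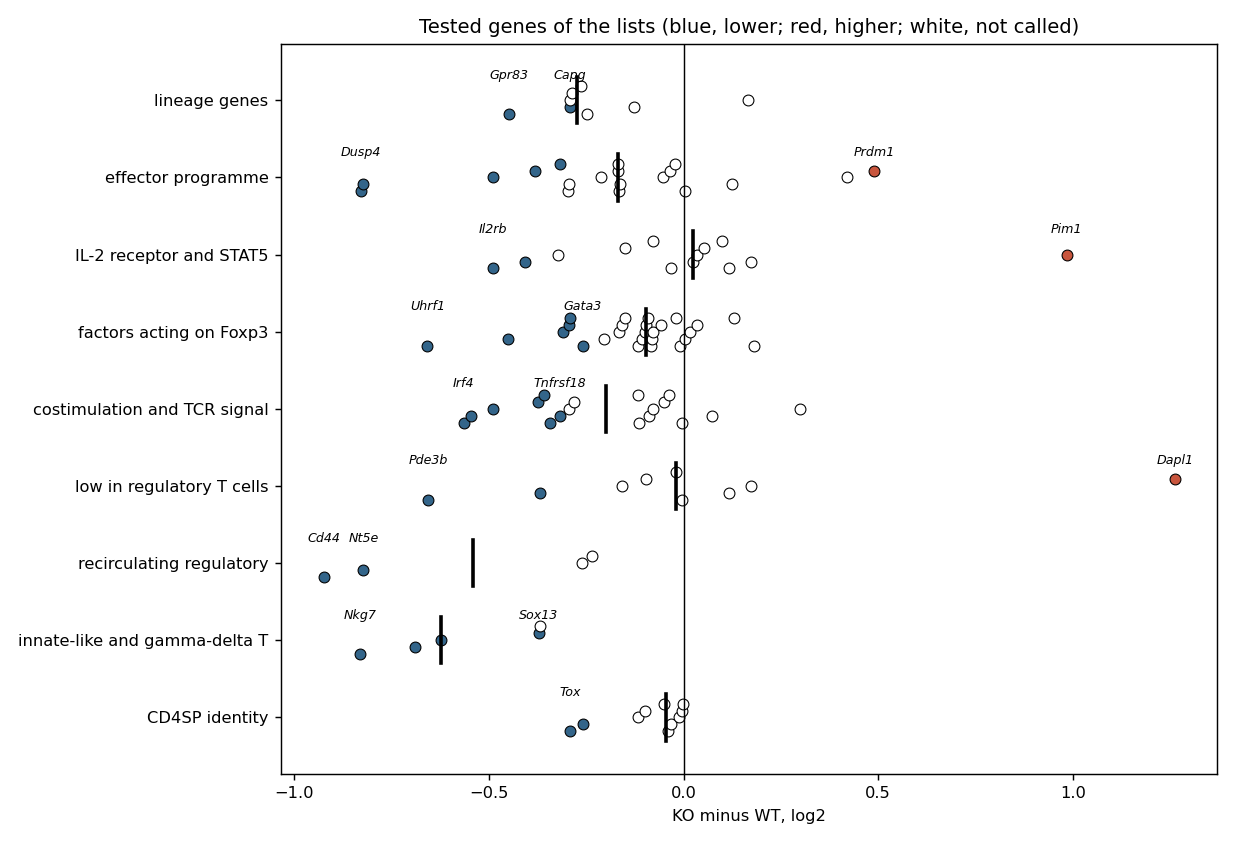
KO minus WT (log2, x axis) of each tested gene in 9 lists (rows), with filled points for genes called lower (blue) or higher (red), vertical bars at list medians and names at the extreme calls. The lineage genes have a median of -0.27, the effector programme -0.17, the interleukin-2 list 0.02 and the innate-like and gamma-delta T list -0.62.

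Markers of other cells that a CD4SP sort can hold moved alongside. Of the list of regulatory T cells that return from the periphery 4 of 11 genes were tested. All 4 were lower in mean, where 59.1% of all tested genes were. Cd44, an activation marker, and Nt5e fell, where 8.53% of all tested genes were called lower. Nt5e is the same gene already counted in the regulatory effector programme. Cd44 stood at 6.92, 7.37, 6.80 and 7.12 log2 in WT and at 6.01, 5.89, 6.38 and 6.25 in KO. The mean level of the list was 7.95 to 8.17 in the WT arrays and 7.38 to 7.59 in the KO arrays. Ccr6, Klrg1, Il1r2, S100a4, S100a6 and Ccr2 were below the filter. Of 13 innate-like and gamma-delta T genes 5 were tested and 4 fell, where 8.53% of all tested genes did. They were Nkg7, Zbtb16, Xcl1 and Sox13, by 0.83, 0.69, 0.62 and 0.37 log2 (limma, Benjamini-Hochberg adjusted p from 0.0179 to 0.0453). The count was 1 without WT replicate 2 or KO replicate 1, 3 or 4, and 2 without WT replicate 1 or KO replicate 2. The mean level of this list was 6.88 to 7.56 in WT and 6.48 to 6.60 in KO, and Klrb1c, Klrk1, Gzma, Gzmb, Ifng, Il4 and Blk were below the filter. The part of these cells in the falls of Gpr83 and Capg was not tested.

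Markers of CD8-lineage and double-positive cells were also lower in mean in all 7 tested genes of 9, where 59.1% of all tested genes were. Cd8a fell by 0.74 log2 (limma, Benjamini-Hochberg adjusted p = 0.0354), a call lost on omitting WT replicate 2 or 3 or KO replicate 2 or 4 (up to 0.0893). The mean level of the list was 8.02 to 8.24 in WT and 7.67 to 7.97 in KO. Among B cell genes Pax5, Ms4a1, Cd79a and Cd22 were below the filter, and 2 were tested. Ighm rose by 0.68 log2 by the brightest of its 7 probe sets (limma, Benjamini-Hochberg adjusted p = 0.000122), a call that ended with the mean of all of them (0.06 log2, 0.697). Cd79b, a chain of the B cell receptor, differed by 0.05 (adjusted p = 0.832). The mean level of both genes was 8.68 to 9.02 in WT and 9.16 to 9.38 in KO. Of the myeloid and dendritic list 6 of 13 were tested and Fcgr3 rose by 0.54 (0.0291), a call lost on omitting replicate 2 or 4 of either genotype (up to 0.0763), and the list's level was 6.28 to 6.57 in WT and 6.35 to 6.59 in KO. Of the epithelial, stromal and endothelial list Pecam1, also a T cell gene, rose by 0.24 (0.0286), a call that held only without WT replicate 1 or KO replicate 4, and Epcam, Foxn1 and Pdgfra were below the filter. Klf1, the erythroid gene measured, was below it too. The part of these cells in the results was not tested.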

How the data were processed

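The authors deposited log2 intensities per gene-level probe set of Mouse Gene 2.0 ST arrays, which the submitters' processing notes credit to RMA and Affymetrix Expression Console 1.1. RMA corrects background, equalises the arrays' distributions and summarises probes. With amplified nanogram RNA the differences of weak genes can come out compressed, which was not measured here. The number of arrays limits the precision. The sources used here name no genome build. Of 41345 probe sets, 23521 carry 1 symbol in a platform annotation, which can be old, 1814 carry several and 16010 are not listed.

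KO was compared with WT with limma 3.58.1 in R 4.3.3 (lmFit, eBayes, two-sided, genotype only), adjusted by Benjamini-Hochberg over 11585 genes with a mean of at least 5.56. Log2 differences take KO minus WT. Errors are fit SEs, and intervals are 95%. Replicates were numbered in deposit order within a genotype. On simulated data 65.4% of 81 genes changed 1.3-fold and 87.3% of 55 changed 1.5-fold were recovered among 11585. Of the unchanged genes 6 were called. Smaller changes were not simulated, and the tested lineage genes without a call differed by 1.09-fold (Il2ra) to 1.22-fold (Ikzf2). The power to find changes of that size is therefore not known from these simulations.

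The members and 17 further lists were chosen with earlier results of these data known. Of 196 symbols 21 were not matched. Named genes are all members, up to 4 genes of each list (called first, then by p), all called ones of the effector, interleukin-2 and Foxp3-locus lists, and the 5 most like Foxp3; others were named after their values were seen. Promoters come from RefSeq (GRCm38.p6).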

Additional observations from a re-analysis of the deposited data

How the results depend on the processing

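The count of 2 lineage genes lower in KO was 1 with no intensity filter, with array weights and with a Hspa1a and Hspa1b covariate, and 4 with median-centred arrays or with an intensity trend and robust prior. It was 0 over all probe sets and at an adjusted p under 0.01 (5 of the genes lower at an unadjusted p under 0.05 in both limma fits), 0 without KO replicates 1 and 2 (2 at unadjusted p) and 0 without WT replicates 2 and 3 (4 at unadjusted p). With single arrays left out it ran from 1 to 3. The count with median-centred arrays comes with a shift of all differences downward by the same amount. In all 21 alternatives no lineage gene was called higher by limma, and at an unadjusted p under 0.05 the count was 1, both on omitting KO replicate 1 and on dropping KO replicates 1 and 2, and 0 in the others. Differences of Foxp3, Il2ra, Ikzf2, Ikzf4, Gpr83, Capg and Izumo1r kept their sign in all 21, and that of Lrrc32 in all but 1.

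Over all tested genes the counts of 988 lower and 515 higher became 556 and 364 with no intensity filter, 254 and 325 over all probe sets, 524 and 350 with the Hspa1a and Hspa1b covariate, 240 and 206 at an adjusted p under 0.01, 122 and 136 without KO replicates 1 and 2, and 145 and 150 without WT replicates 2 and 3. With single arrays left out they ran from 493 to 945 lower and from 302 to 496 higher. Of the 36 called genes in the further lists none changed sign in the 21 alternatives. Of their calls 20 were lost over all probe sets, 18 at an adjusted p under 0.01, 26 and 23 on dropping the KO and WT pairs, 10 with the Hspa1a and Hspa1b covariate, 9 with no intensity filter, 1 with probe sets averaged per gene, and 4 to 11 with a single array left out. The causes were not tested, except that fewer arrays and more probe sets of weak signal enter the respective fits. No paired analysis was possible because the labels name no pairs. The sample numbers are unique to each array, so they cannot show whether the animals were paired. The limit of these data is the number of arrays and, for Socs2 and Lrrc32, signal near background.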
